A study of Mus musculus with 24 samples.

Results

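SNAI, TWIST, ZEB and PRRX genes encode the transcription factors best known for the epithelial-mesenchymal transition, in which epithelial cells lose their junctions and take on fibroblast-like features. *Snai1* and *Snai2* encode zinc finger repressors, *Zeb1* and *Zeb2* encode larger zinc finger repressors that read the same class of E-box, *Twist1* and *Twist2* encode basic helix-loop-helix (bHLH) factors, and *Prrx1* and *Prrx2* encode paired-type homeobox factors of the limb and facial mesenchyme. Fibroblasts are mesenchymal already and normally express several of these genes, where they are studied for migration, matrix production and lineage identity. The 8 genes were chosen by name from 55471 genes in the count tables, and all 8 were found. The rule held no measured value, but earlier results of these data were known when it was made.

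Their mRNA was measured by RNA-seq in 3T3 mouse embryonic fibroblasts (MEFs), an immortalized line. The 24 libraries fell into 8 groups of 3: wild-type (WT) MEFs, LKB1 knockout MEFs (*Lkb1*-/-, which lack the kinase encoded by *Stk11*), and LKB1/CRTC2 knockout clones A1 and A2, each either untreated (control) or given IL-1β, an inflammatory cytokine, 6 h before collection. Per the study's methods the clones were made by CRISPR-Cas9 with guides to the first exon of *Crtc2*, which encodes a coactivator of CREB, and each was expanded from a single cell, so that both carry the LKB1 knockout as well and each is 1 clone. The WT and *Lkb1*-/- lines are described there only as made earlier, and nothing in the labels says that the 3 libraries of a group came from separate cultures, so the tests measure the spread between libraries, which may be technical.

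Gene counts were 38842901 to 48594394 per library, with a median of 42431965. Replicate 1 stood apart from the other libraries in all 8 groups: its counts differed from those of replicates 2 and 3 by a chi-square per gene of 37.9 to 107, against 7.46 to 18.8 between replicates 2 and 3, and its share of counts with no gene was the highest of its group (29.9% to 34.4%, against 26.7% to 30.0% in the others). Calls that change without the 8 replicate 1 libraries, an alternative chosen after seeing the data, are given beside the results, and the part of this difference in them was not tested. *Stk11* fell from 86.0 ± 1.68 counts per 1000000 (CPM, SD, n = 3) in untreated WT to 17.3 ± 1.24 in untreated *Lkb1*-/- MEFs, and *Crtc2* from 81.1 ± 1.80 in *Lkb1*-/- MEFs to 42.9 ± 2.11 in clone A1 and 49.8 ± 0.864 in clone A2. Edited *Crtc2* transcripts can still be counted, so that its count is a weak check of the clones. Of 10 fibroblast markers, *Vim* (3208 ± 155 CPM in untreated WT) and the collagens *Col1a1* and *Col1a2* were abundant, whereas *Thy1*, *Lum* and *Fap* had at most 3, 10 and 8 counts in any library. The 19 epithelial markers summed to between 2.32 and 6.08 CPM in every library, and *Cdh1*, *Epcam* and *Esrp1* had at most 7, 13 and 2 counts. Others reached more, with up to 111 counts for *Krt19*, 98 for *Ocln* and 56 for *Esrp2*.

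Levels below are CPM on library sizes scaled by the trimmed mean of M values (TMM), and levels of the 8 genes are compared with each other only after division by the exon length in kilobases (RPKM). This length covers the exons of all annotated transcripts of a gene together, from 1621 bases for *Snai1* to 19942 for *Zeb2*. It can exceed the length of any 1 transcript, and the order of the genes and the shares within pairs depend on it. Differences between groups are log2 fold changes with their SE from 1 edgeR quasi-likelihood fit over all libraries. A gene was called where its Benjamini-Hochberg false discovery rate (FDR) over the 17522 genes tested was under 0.05. All 8 genes passed the filter on low counts.

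The start regions of 4 of these genes are shown because *Snai1* and *Twist2* were the 2 genes lower than in *Lkb1*-/- MEFs in both clones with and without IL-1β, and *Twist1* and *Prrx1* had the highest levels per length in WT MEFs. The windows run from 250 bases before to 50 bases after the RefSeq start (GRCm38.p6) and are written 5′ to 3′ on the gene's strand: *Snai1* at chr2:167537945-167538244 (plus strand), *Twist2* at chr1:91801211-91801510 (plus), *Twist1* at chr12:33957421-33957720 (plus) and *Prrx1* at chr1:163313601-163313900 (minus). Capitals mark matches to the E-box read by SNAI and ZEB factors (CAGGTG or its complement CACCTG) or to the half-site of the cAMP response element (TGACG or CGTCA), the motif of CREB.
Snai1: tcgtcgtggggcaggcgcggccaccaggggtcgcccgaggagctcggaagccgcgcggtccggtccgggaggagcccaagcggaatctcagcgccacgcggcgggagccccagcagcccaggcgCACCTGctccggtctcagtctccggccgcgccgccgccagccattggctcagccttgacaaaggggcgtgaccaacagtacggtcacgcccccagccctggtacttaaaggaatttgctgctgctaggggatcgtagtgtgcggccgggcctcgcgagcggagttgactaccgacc
Twist2: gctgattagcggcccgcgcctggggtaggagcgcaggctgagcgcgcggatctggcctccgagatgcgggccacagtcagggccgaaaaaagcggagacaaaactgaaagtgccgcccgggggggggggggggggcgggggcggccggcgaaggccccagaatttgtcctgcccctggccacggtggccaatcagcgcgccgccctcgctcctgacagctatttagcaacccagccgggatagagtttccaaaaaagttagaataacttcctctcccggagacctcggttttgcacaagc
Twist1: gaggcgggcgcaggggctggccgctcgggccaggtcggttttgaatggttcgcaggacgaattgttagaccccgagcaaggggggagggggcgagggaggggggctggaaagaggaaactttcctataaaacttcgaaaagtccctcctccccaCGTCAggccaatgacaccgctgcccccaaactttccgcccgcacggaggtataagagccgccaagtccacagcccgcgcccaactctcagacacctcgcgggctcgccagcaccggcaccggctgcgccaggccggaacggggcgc
Prrx1: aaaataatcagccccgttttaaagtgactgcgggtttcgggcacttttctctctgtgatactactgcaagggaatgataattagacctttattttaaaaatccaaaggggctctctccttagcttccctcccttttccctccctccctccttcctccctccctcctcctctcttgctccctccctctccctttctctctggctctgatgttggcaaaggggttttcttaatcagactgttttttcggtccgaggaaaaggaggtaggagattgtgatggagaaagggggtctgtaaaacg

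The *Snai1* window held 1 SNAI and ZEB E-box, beginning at position -126 from the start, a motif found on either strand in 20.2% of 32851 mouse start windows of the same length. The same letters match the general E-box CANNTG, which 72.3% of windows held and the other 3 windows printed here did not. The *Twist1* window held 1 half-site of the cAMP response element, at position -96, a motif found in 20.8% of windows. Neither the *Twist2* nor the *Prrx1* window held any of these letters. The full element TGACGTCA (1.79% of windows) and the NF-κB consensus (8.46%) were in none of the windows searched, which covered 6 of the 8 genes. Windows on chromosome 18, where *Zeb1* lies, were left out of the search, and no window of *Snai2* was among those searched. Of the 4 *Zeb2* windows, 2 that overlap each other held the same half-site, and the *Prrx2* window held no match. These are matches of letters, in windows that for *Twist2* lie inside the span of the antisense gene *Gm29100*.

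Per length, the order of the 8 genes differed between genotypes. In untreated WT MEFs *Prrx1* (25.3 ± 2.29 RPKM, SD, n = 3) and *Twist1* (23.2 ± 1.22) led with overlapping libraries, followed by *Zeb1* (12.04 ± 0.517). *Snai1* (9.82 ± 0.490) and *Prrx2* (9.24 ± 0.863) overlapped next, and *Twist2* (5.91 ± 0.230), *Snai2* (5.19 ± 0.472) and *Zeb2* (5.12 ± 0.0689) came last, each overlapping its neighbour.

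In untreated *Lkb1*-/- MEFs *Snai1* led at 54.2 ± 4.59 RPKM, above *Snai2* at 31.8 ± 3.24 and *Twist1* at 26.2 ± 1.08, with no overlap between these neighbours. *Zeb1* (10.7 ± 0.785) and *Prrx1* (9.86 ± 0.711) overlapped, and *Twist2* (8.52 ± 0.613), *Prrx2* (7.76 ± 1.56) and *Zeb2* (6.51 ± 0.524) formed the lower end, each overlapping the next. In both untreated clones *Snai1* (33.8 ± 3.03 in A1 and 33.3 ± 2.39 in A2), *Snai2* (27.2 ± 2.86 and 31.6 ± 8.28) and *Twist1* (30.7 ± 2.46 and 22.7 ± 3.44) held the first 3 places. Of these, *Snai1* and its next neighbour overlapped in each clone, and *Twist2* was lowest at 4.60 ± 0.0309 and 5.14 ± 0.278.

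**Figure D1:**
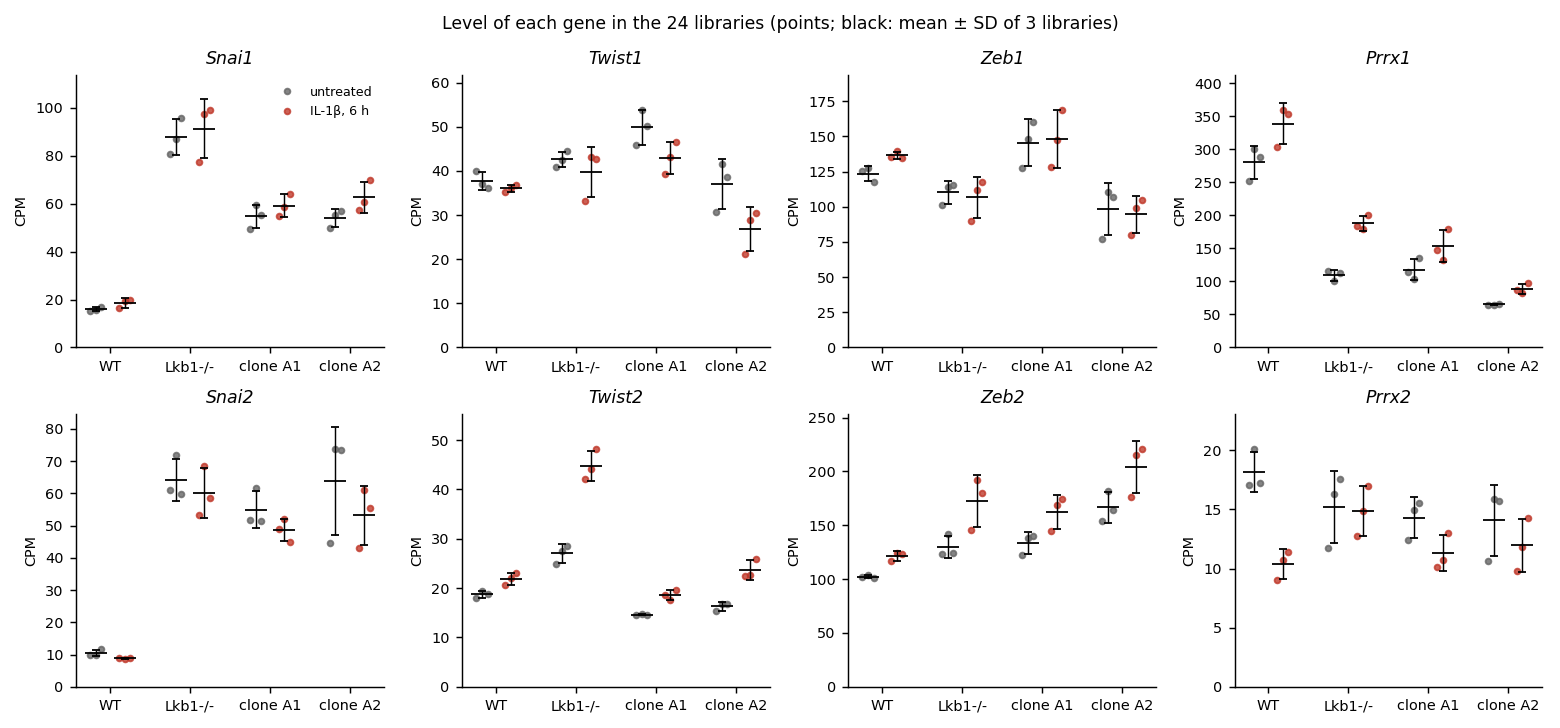
Level of each gene in CPM (linear axis from 0, a scale of its own per gene) in every library, by genotype, untreated in grey and after IL-1β in red; points are single libraries and black marks the mean ± SD of 3. *Snai1* and *Snai2* sit lowest in the WT libraries (15.3 to 19.99 and 8.62 to 11.6 CPM), *Prrx1* highest there (252 to 359 CPM), and *Twist2* peaks in the IL-1β-stimulated *Lkb1*-/- libraries (42.1 to 48.1 CPM).

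Comparing untreated *Lkb1*-/- with WT MEFs asks how these genes differ between the knockout and the WT cells. The labels name no further line of either genotype, so loss of LKB1 cannot be told apart from other differences between the lines. Of the 8 genes, 4 were higher (*Snai1*, *Snai2*, *Twist2* and *Zeb2*) and 1 was lower (*Prrx1*). Of all genes tested, 55.9% were called, 30.1% higher and 25.8% lower. The median log2 fold change was 0.26 over the 8 genes and 0.04 over all genes tested.

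*Snai1*, whose product represses E-cadherin, was counted at 15.3, 15.6 and 16.8 CPM in the untreated WT libraries and at 80.8, 87.1 and 95.6 CPM in the untreated *Lkb1*-/- libraries. The groups lay far apart, with a log2 fold change of 2.46 ± 0.11 (SE; FDR 7.0e-14). *Snai2*, which encodes the closely related repressor Slug, was at 9.87, 9.99 and 11.6 CPM in WT and at 61.0, 71.7 and 59.9 CPM in *Lkb1*-/- MEFs, which gave 2.62 ± 0.17 on the log2 scale (FDR 1.7e-11). In these bulk samples fewer cells with a transcript and less of it per cell cannot be told apart.

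The other pairs were split. *Twist2* was at 18.0, 19.5 and 18.8 CPM in WT and at 24.9, 27.6 and 28.6 CPM in *Lkb1*-/- MEFs, higher by 0.53 ± 0.08 (log2, SE; FDR 4.3e-06), whereas *Twist1*, at 39.9, 37.0 and 36.2 against 41.0, 42.4 and 44.4 CPM, differed by 0.18 ± 0.12 and was not called (FDR 0.24). *Zeb2* (102, 104 and 101 against 123, 142 and 124 CPM) was higher by 0.35 ± 0.10 (FDR 0.0062). *Zeb1* (125, 128 and 118 against 101, 114 and 116 CPM) had a log2 fold change of -0.17 ± 0.13 (FDR 0.30). For *Twist1* and *Zeb1* the 3 libraries of one group did not overlap those of the other, although neither was called; 64.8% of all genes had groups that did not overlap.

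*Prrx1* went the other way from the SNAI pair. It was at 252, 301 and 288 CPM in WT and at 115, 100.2 and 112 in the knockout, with a log2 fold change of -1.36 ± 0.11 (FDR 8.3e-10). *Prrx2* was at 17.0, 20.1 and 17.3 CPM in WT and at 11.8, 16.3 and 17.6 in *Lkb1*-/- MEFs, with overlapping libraries and a log2 fold change of -0.25 ± 0.17 (FDR 0.23). None of the 5 calls was lost when any 1 library was left out. Without the replicate 1 libraries 6 genes were called, next to 59.1% of all genes, with *Twist1* higher by 0.25 (FDR 0.0030). *Twist1* was called higher under upper quartile scaling (0.25, FDR 0.031) and when only these 6 libraries were fitted (0.19, FDR 0.032).

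After IL-1β, 7 of the 8 genes differed between *Lkb1*-/- and WT MEFs, 5 higher and 2 lower, next to 57.4% of all genes (30.2% higher and 27.1% lower). *Snai1* was at 77.2, 97.6 and 99.1 CPM in *Lkb1*-/- against 16.3, 19.5 and 19.99 in WT (log2 fold change 2.30 ± 0.11, FDR 2.0e-13). *Snai2* was at 53.4, 68.6 and 58.5 against 9.03, 8.62 and 8.82 CPM (2.77 ± 0.17, FDR 8.3e-12). For both genes every knockout library again lay above every WT library.

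*Twist2* stood further apart than in untreated cells, at 42.1, 44.1 and 48.1 CPM against 20.6, 22.1 and 23.0 (log2 fold change 1.03 ± 0.08, FDR 1.9e-10). *Prrx1* was at 183, 180.0 and 201 against 303, 359 and 354 CPM (-0.85 ± 0.11, FDR 8.1e-07). *Zeb2* was higher (0.51 ± 0.10, FDR 2.0e-04), and *Twist1* was again not called (0.14 ± 0.12, FDR 0.36). *Prrx2*, at 12.7, 14.9 and 17.0 against 9.01, 10.8 and 11.4 CPM, was called higher here (0.52 ± 0.18, FDR 0.016).

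*Zeb1*, at 90.1, 112 and 118 against 136, 139 and 135 CPM after IL-1β, was called lower in *Lkb1*-/- MEFs (-0.36 ± 0.13, FDR 0.025). The *Zeb1* call was lost without IL-1β *Lkb1*-/- replicate 1 (FDR 0.14) or IL-1β WT replicate 2 (FDR 0.065), and the *Prrx2* call without IL-1β *Lkb1*-/- replicate 3 (FDR 0.088) or IL-1β WT replicate 1 (FDR 0.080). Upper quartile scaling moved the median of all genes in this comparison by 0.103 on the log2 scale and called *Twist1* higher (0.24, FDR 0.042); every called member kept its direction. Without the replicate 1 libraries all 8 genes were called, next to 60.2% of all genes, with *Twist1* higher by 0.24 (FDR 0.0038).

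**Figure D2:**
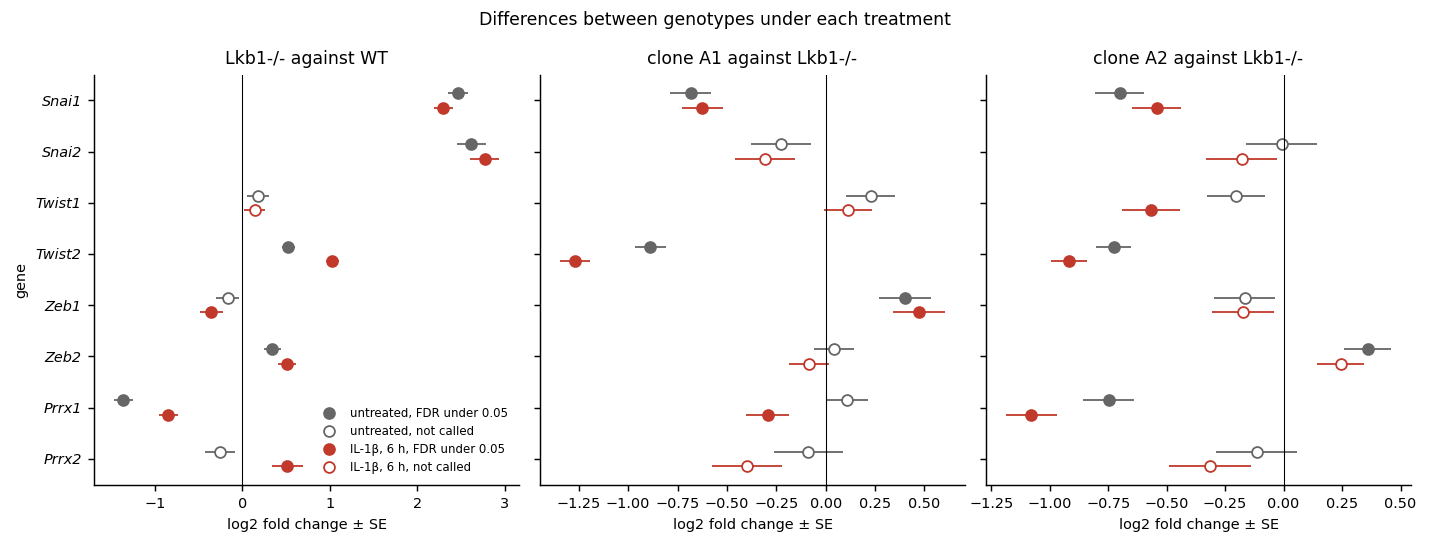
Log2 fold change of each gene ± SE for *Lkb1*-/- against WT MEFs (left) and each LKB1/CRTC2 knockout clone against *Lkb1*-/- MEFs (middle and right; the x axes differ in range), untreated in grey and after IL-1β in red, filled where FDR was under 0.05. *Snai1* and *Snai2* lie beyond 2 on the left, while on the right *Snai1* and *Twist2* lie at -0.54 or below in both clones and *Snai2* is open in both.

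The clones ask which of these levels differ when *Crtc2* is edited on the LKB1 knockout background. Both comparisons share the *Lkb1*-/- libraries, so their values are not independent of each other. In untreated cells 3 of the 8 genes differed in clone A1 (2 lower and 1 higher, next to 35.3% of all genes, 16.4% lower and 18.9% higher) and 4 in clone A2 (3 lower and 1 higher, next to 32.3%, 15.1% lower and 17.1% higher), and *Snai1* and *Twist2* were lower in both. With the replicate 1 libraries left out 4 were called in each, next to 40.2% of all genes for A1 and 39.2% for A2, and *Twist1* was then higher in A1 (0.26, FDR 0.0036, against 0.23 ± 0.12, FDR 0.17, with all libraries).

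*Snai1* was at 49.5, 59.3 and 55.4 CPM in untreated clone A1 and 49.7, 55.2 and 57.1 CPM in clone A2, all below the 80.8 to 95.6 CPM of *Lkb1*-/- MEFs. The log2 fold changes were -0.68 ± 0.10 (FDR 2.9e-05) and -0.70 ± 0.10 (FDR 2.7e-05). Both clones remained above WT, by 1.78 ± 0.11 (FDR 1.1e-11) in A1 and 1.76 ± 0.11 (FDR 1.0e-11) in A2. After IL-1β *Snai1* was at 54.8, 58.6 and 64.2 CPM in A1 and 57.4, 60.6 and 70.0 CPM in A2, lower than in *Lkb1*-/- MEFs by log2 fold changes of -0.63 ± 0.10 (FDR 7.1e-05) and -0.54 ± 0.10 (FDR 3.7e-04).

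*Twist2* was at 14.6, 14.7 and 14.5 CPM in untreated clone A1 and 15.3, 16.9 and 16.8 CPM in clone A2. Compared with *Lkb1*-/- MEFs its log2 fold changes were -0.89 ± 0.08 (FDR 2.7e-08) and -0.73 ± 0.08 (FDR 3.8e-07). These levels lay below WT too, by -0.36 ± 0.08 (log2, FDR 4.3e-04) in A1 and -0.20 ± 0.08 (FDR 0.029) in A2.

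After IL-1β *Twist2* was at 18.5, 17.5 and 19.7 CPM in clone A1 and 22.5, 22.7 and 26.0 CPM in clone A2, against 42.1 to 48.1 in *Lkb1*-/- MEFs. The log2 fold changes were -1.27 ± 0.08 (FDR 1.3e-10) and -0.92 ± 0.08 (FDR 1.5e-08). Against stimulated WT MEFs A1 was lower (-0.24 ± 0.08, FDR 0.011) and A2 was not called (0.11 ± 0.08, FDR 0.21), but was higher under upper quartile scaling (0.20, FDR 0.0078). The call of untreated A2 against WT was lost without WT control replicate 2 (FDR 0.10), without all replicate 1 libraries (FDR 0.063), with unstranded counts, with upper quartile scaling, with no filter and when only the compared groups were fitted (FDR 0.077 to 0.14). That of stimulated A1 was lost without A1 IL-1β replicate 2 (FDR 0.064), under upper quartile scaling (-0.13, FDR 0.087) and with no filter (FDR 0.17).

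*Snai2* was called lower than in *Lkb1*-/- MEFs in neither clone. It was at 51.6, 61.6 and 51.5 CPM in untreated clone A1 and 44.5, 73.6 and 73.4 CPM in clone A2, where replicate 1 sat apart from the other two. The log2 fold changes were -0.23 (95% confidence interval -0.54 to 0.09) and -0.01 (-0.33 to 0.31), and after IL-1β -0.31 (-0.62 to 0.01) and -0.18 (-0.50 to 0.14). The lower bounds came close to the values of *Snai1* in A1, and the difference between the 2 genes was not tested. *Snai2* was called lower in A1 when only the groups compared were fitted (-0.26, FDR 0.048 untreated and -0.29, FDR 0.039 after IL-1β) and, after IL-1β, with no filter (-0.30, FDR 0.0084), under a replicate block (-0.30, FDR 0.029) and without the replicate 1 libraries (-0.39, FDR 0.012). Its difference in untreated A2 changed sign to 0.01 with unstranded counts, to 0.16 without all replicate 1 libraries, to 0.20 without A2 control replicate 1 and to 0.08 without *Lkb1*-/- control replicate 2. Against WT it was higher in both clones, by 2.39 ± 0.16 (FDR 7.2e-11) and 2.61 ± 0.17 (FDR 1.5e-11).

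*Prrx1* separated the clones from each other. Untreated, it was at 114, 103 and 135 CPM in A1, overlapping *Lkb1*-/- MEFs (0.11 ± 0.11, FDR 0.49), and at 65.0, 65.0 and 65.2 CPM in A2, below every *Lkb1*-/- library (-0.75 ± 0.11, FDR 2.3e-05). After IL-1β it was at 147, 133 and 180 CPM in A1 (-0.29 ± 0.11 against *Lkb1*-/- MEFs, FDR 0.037) and at 87.5, 82.2 and 97.3 CPM in A2 (-1.08 ± 0.11, FDR 2.3e-07). The stimulated A1 call was lost without A1 replicate 1 or 2 or *Lkb1*-/- replicate 1 or 3 (FDR 0.055 to 0.21), with unstranded counts (FDR 0.071), when only the compared groups were fitted (FDR 0.065) and without all replicate 1 libraries (FDR 0.11), and the untreated value changed sign to -0.0049 without A1 control replicate 3.

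The ZEB pair split by clone. *Zeb1* was higher than in *Lkb1*-/- MEFs in clone A1, untreated (127, 148 and 161 CPM; 0.40 ± 0.13, FDR 0.021) and after IL-1β (128, 148 and 169 CPM; 0.47 ± 0.13, FDR 0.0071). *Zeb2* was higher in untreated clone A2 (154, 182 and 164 CPM; 0.36 ± 0.10, FDR 0.0090). After IL-1β the A2 level of *Zeb2*, 177, 216 and 220 CPM, overlapped that of *Lkb1*-/- MEFs (0.24 ± 0.10, FDR 0.070). With 1 library left out the value ran from 0.13 to 0.36. *Zeb2* was called higher there under upper quartile scaling (FDR 0.021), with no filter (FDR 0.032) and without the replicate 1 libraries (0.23, FDR 0.0093). The *Zeb1* calls were lost without A1 control replicate 2 or 3 or *Lkb1*-/- control replicate 1 (FDR 0.051 to 0.10), and without *Lkb1*-/- IL-1β replicate 1 (FDR 0.051).

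*Twist1* was lower in IL-1β-stimulated clone A2 (21.1, 28.8 and 30.5 CPM) than in *Lkb1*-/- MEFs (33.1, 43.2 and 42.8 CPM), a log2 fold change of -0.57 ± 0.12 (FDR 0.0014). In all, 4 of the 8 genes differed after IL-1β in clone A1 (3 lower and 1 higher, next to 36.7% of all genes, 17.3% lower and 19.4% higher) and 4 in clone A2 (all lower, next to 32.8%, 15.8% lower and 17.1% higher). Without *Lkb1*-/- IL-1β replicate 1 the A1 count was 2, and without all replicate 1 libraries both counts were 5, next to 41.7% and 38.7% of all genes. *Prrx2* was called against *Lkb1*-/- MEFs in neither clone after IL-1β (-0.40 ± 0.18, FDR 0.084 in A1 and -0.31 ± 0.18, FDR 0.19 in A2), but was called lower in A1 under upper quartile scaling, with no filter and when only the compared groups were fitted (FDR 0.045, 0.014 and 0.040), and without the replicate 1 libraries (FDR 0.011).

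Against WT, 6 of the 8 genes differed in each untreated clone (next to 55.4% of all genes for A1 and 60.6% for A2), and after IL-1β 5 differed in A1 (next to 56.9%) and 6 in A2 (next to 60.8%). *Prrx1* was lower in each, with log2 fold changes of -1.25 ± 0.11 (FDR 3.1e-09) in untreated A1 and -2.11 ± 0.11 (FDR 8.8e-13) in untreated A2. *Zeb2* was higher in each, by 0.39 ± 0.10 (FDR 0.0028) in untreated A1 and 0.70 ± 0.10 (FDR 3.8e-06) in untreated A2. Without the replicate 1 libraries all 8 genes were called in untreated A1, next to 58.1% of all genes, with *Zeb1* (0.33, FDR 5.4e-04) and *Prrx2* (-0.29, FDR 0.049) added. In stimulated A1 7 were called, next to 59.5%, with *Twist1* (0.30, FDR 7.7e-04) and *Zeb1* (0.21, FDR 0.014) added. In A2 the same libraries gave 5 untreated, with *Twist2* no longer called (-0.18, FDR 0.063), and 6 after IL-1β, each next to 63.4%. *Zeb1* and *Prrx2* in untreated A1 and *Twist1* in stimulated A1 were also called with no filter (FDR 0.036, 0.018 and 0.014) and when only the compared groups were fitted (FDR 0.016, 0.028 and 0.011).

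Compared directly, untreated A2 differed from A1 in 4 of the 8 genes (next to 32.5% of all genes). *Prrx1* (-0.85 ± 0.11, FDR 4.3e-06), *Zeb1* (-0.57 ± 0.13, FDR 0.0021) and *Twist1* (-0.43 ± 0.12, FDR 0.010) were lower in A2 and *Zeb2* (0.32 ± 0.10, FDR 0.019) higher. After IL-1β these 4 were called in the same directions together with *Twist2* (0.35 ± 0.08, FDR 0.0012), 5 in all next to 30.7% of all genes. Without 1 of the A1 control libraries the untreated *Twist1* call (replicate 2, FDR 0.053) or *Zeb2* call (replicate 1, FDR 0.10) was lost. *Snai2* was called higher in untreated A2 without all replicate 1 libraries (0.38, FDR 0.014) or without A2 control replicate 1 alone (0.42, FDR 0.012), against 0.22 ± 0.15 (FDR 0.30) with all libraries. The *Zeb2* call was also lost without A2 control replicate 2 (FDR 0.064) and, after IL-1β, without A1 replicate 1 (FDR 0.098) or A2 replicate 3 (FDR 0.054).

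IL-1β, which signals through NF-κB and MAP kinases, was compared with no treatment within each genotype. In WT MEFs 1 of 8 was called (*Prrx2*), next to 2.26% of all genes, which were 268 higher and 128 lower, or 307 higher and 228 lower under upper quartile scaling. In *Lkb1*-/- MEFs 3 were called next to 4.74%, in clone A1 1 next to 1.99%, and in clone A2 3 next to 5.68%. Without the replicate 1 libraries 2, 3, 2 and 4 were called in WT, *Lkb1*-/-, A1 and A2, next to 5.28%, 8.79%, 5.15% and 14.6% of all genes. Under a replicate block 5, 3, 4 and 5 were called, next to 9.30%, 14.8%, 9.61% and 17.9%. Calls that the block added among the results given here are listed near the end.

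*Twist2* was called higher after IL-1β in the 3 LKB1-deficient genotypes. Every stimulated library, given above, was higher than every untreated one of the same genotype, WT included. Stimulated and untreated libraries did not overlap for 6, 3, 2 and 4 of the 8 genes in WT, *Lkb1*-/-, A1 and A2. The share of all genes without such overlap is not given for these comparisons. The log2 fold change of *Twist2* was 0.73 ± 0.08 (FDR 1.5e-06) in *Lkb1*-/- MEFs, 0.54 ± 0.08 (FDR 8.7e-05) in clone A2 and 0.35 ± 0.08 (FDR 0.018) in clone A1. In WT MEFs it was 0.23 ± 0.08 and not called (FDR 0.17), but it was called there with a replicate block. The responses of the clones were not tested against that of WT. The A1 call was lost without any 1 of 5 of its 6 libraries, all but IL-1β replicate 2 (FDR 0.057 to 0.079), and with unstranded counts (0.41, FDR 0.057).

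*Prrx1* rose by 0.78 ± 0.11 (log2, FDR 6.8e-05) in *Lkb1*-/- MEFs and by 0.45 ± 0.11 (FDR 0.014) in clone A2. Its values in clone A1 (0.38 ± 0.11, FDR 0.080) and WT (0.27 ± 0.11, FDR 0.28) were not called; leaving out A1 IL-1β replicate 2 or A1 control replicate 3 gave a call in A1 (FDR 0.038 and 0.033), as did upper quartile scaling, no filter and DESeq2 (FDR 0.035, 4.4e-05 and 0.023). *Zeb2* rose in *Lkb1*-/- MEFs (0.41 ± 0.10, FDR 0.018), a call lost without IL-1β replicate 2 (FDR 0.13) or control replicate 3 (FDR 0.063), and stood at 0.25 ± 0.10 in WT, 0.28 ± 0.10 in A1 and 0.29 ± 0.10 in A2, none called (FDR 0.32, 0.22 and 0.10). *Zeb2* was called in both clones under upper quartile scaling (FDR 0.034 and 0.019) and with no filter (FDR 0.0085 and 0.0041), in A2 by DESeq2 (FDR 0.043) and in WT when only the compared groups were fitted (FDR 0.024). It was called without the replicate 1 libraries in WT (0.28, FDR 0.020), A1 (0.30, FDR 0.012) and A2 (0.34, FDR 0.0024) as well.

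*Prrx2* fell in WT MEFs, from 17.0, 20.1 and 17.3 to 9.01, 10.8 and 11.4 CPM (log2 fold change -0.80 ± 0.18, FDR 0.014). The call was lost without WT IL-1β replicate 1 (FDR 0.095) or WT control replicate 2 (FDR 0.093). *Twist1* fell in clone A2, from 30.8, 41.7 and 38.6 to 21.1, 28.8 and 30.5 CPM (-0.46 ± 0.12, FDR 0.029), and this call was lost without A2 IL-1β replicate 1 (FDR 0.11), A2 control replicate 2 (FDR 0.13) or 3 (FDR 0.077), or when only the compared groups were fitted (FDR 0.27). *Snai1* was not called after IL-1β in WT (0.22 ± 0.11, FDR 0.45) or *Lkb1*-/- MEFs (0.06 ± 0.10, FDR 0.88).

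**Figure D3:**
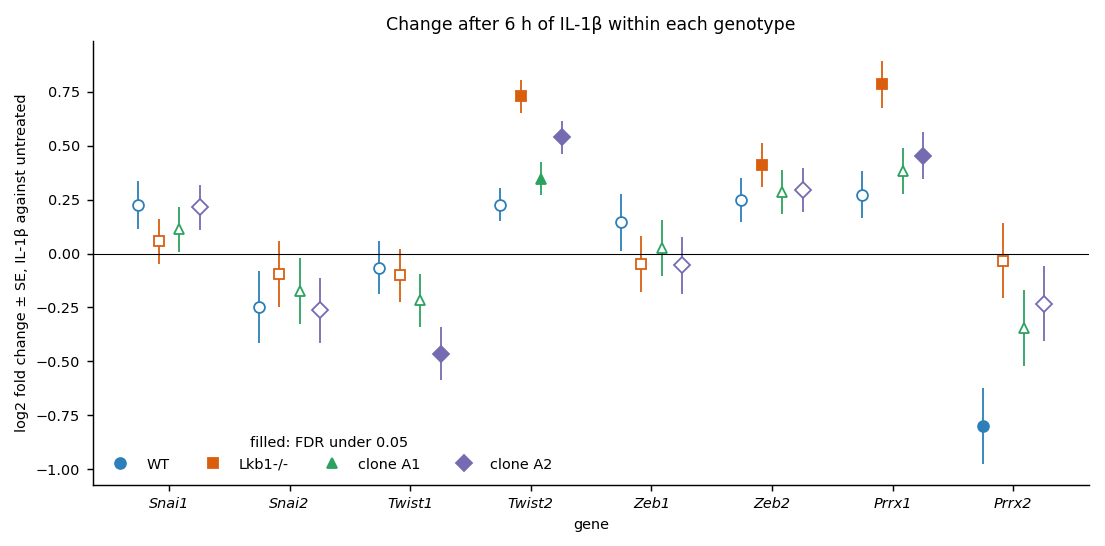
Log2 fold change ± SE after 6 h of IL-1β against untreated cells of the same genotype, for each gene and genotype (marker shape and colour), filled where FDR was under 0.05. *Twist2* and *Prrx1* lie above 0 in all 4 genotypes and highest in *Lkb1*-/- MEFs (0.73 and 0.78), and *Prrx2* lies lowest in WT (-0.80).

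The IL-1β responses were then compared between genotypes as differences of log2 fold changes. Between *Lkb1*-/- and WT MEFs none of the 8 was called (next to 0.245% of all genes), with 3 at an unadjusted p under 0.05, as had 985 of all 17522 genes, and 1 called by DESeq2, next to 0.696%. *Twist2* came nearest, with a difference of 0.50 ± 0.11 (95% confidence interval 0.28 to 0.73, FDR 0.051), followed by *Prrx1* (0.51 ± 0.15, FDR 0.31) and *Prrx2* (0.77 ± 0.25, FDR 0.42). *Twist2* was called under upper quartile scaling (0.53, FDR 0.0051), DESeq2's size factors in edgeR (0.54, FDR 0.029), DESeq2 itself (FDR 6.7e-04) and a fit of the compared groups alone (FDR 0.037), and without IL-1β *Lkb1*-/- replicate 1, *Lkb1*-/- control replicate 3 or IL-1β WT replicate 3 (FDR 0.039, 0.030 and 0.023). *Prrx1* and *Prrx2* were called with no filter on low counts (FDR 4.1e-04 and 0.0018). A replicate block called *Twist2*, *Prrx1* and *Prrx2*.

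Between each clone and *Lkb1*-/- MEFs no response difference was called among the 8 genes by edgeR or DESeq2 (next to 0.0285% of all genes for A1 and 0% for A2, where 388 of 17522 genes had an unadjusted p under 0.05 and DESeq2 called 10). At an unadjusted p under 0.05 there were 2 of the 8 for A1, next to 433 of 17522 genes, and 1 for A2. The difference for *Twist2* was -0.38 ± 0.11 in A1 and -0.19 ± 0.11 in A2 (FDR 1.0 in each).

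Within each pair, the share of the second gene was computed per length, as its RPKM over the sum for the pair. *Snai2* made up 34.5% ± 0.91 of the SNAI pair in untreated WT and 37.0% ± 3.23 in untreated *Lkb1*-/- MEFs, with overlapping ranges. It made up 44.6% ± 1.58 in untreated A1 and 48.1% ± 5.44 in untreated A2, every library above the *Lkb1*-/- range of 33.4% to 39.8%. After IL-1β its share was 27.7% ± 2.65 in WT and 34.6% ± 2.16 in *Lkb1*-/- MEFs, with ranges apart (26.1% to 30.8% and 32.1% to 36.0%). Stimulated A1 (39.8% ± 3.29) overlapped stimulated *Lkb1*-/- MEFs, and stimulated A2 (40.4% ± 3.83) lay above them.

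*Twist2* made up 20.3% ± 1.37 of the TWIST pair in untreated WT, 24.5% ± 0.69 in *Lkb1*-/- MEFs, 13.1% ± 0.91 in A1 and 18.6% ± 1.59 in A2, and 36.8% ± 2.58 in stimulated *Lkb1*-/- MEFs. *Zeb2* ranged from 29.9% ± 0.65 of the ZEB pair in untreated WT to 52.7% ± 0.60 in stimulated A2. *Prrx2* made up 26.8% ± 1.27 of the PRRX pair in untreated WT and 14.8% ± 0.58 after IL-1β, and 43.8% ± 6.24 in untreated *Lkb1*-/- MEFs and 54.5% ± 5.63 in untreated A2.

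**Figure D4:**
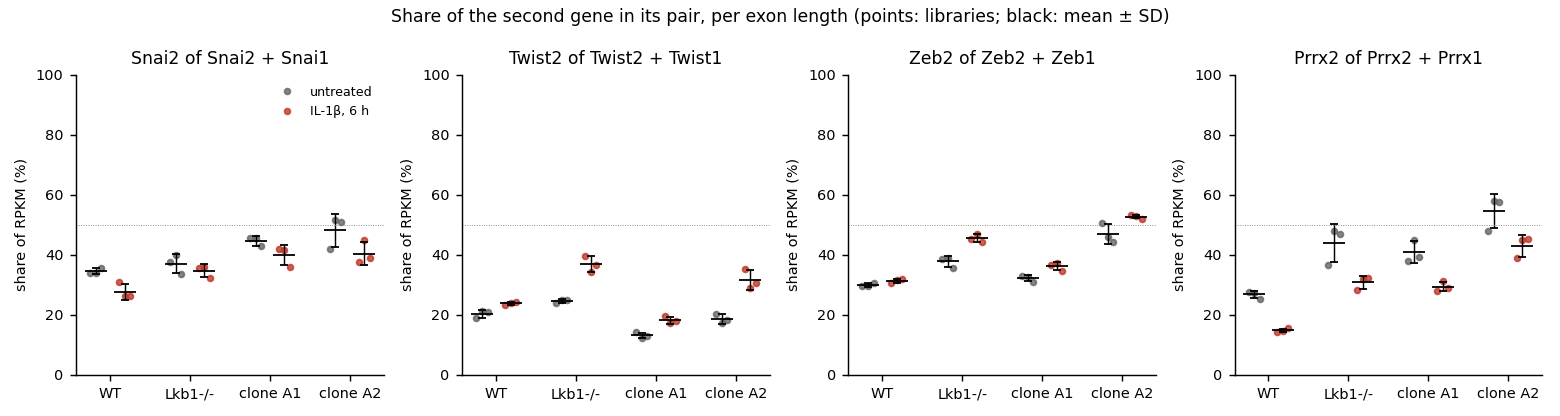
Share (percent of summed RPKM) of *Snai2*, *Twist2*, *Zeb2* and *Prrx2* in their pairs, by genotype and treatment; points are libraries, black marks the mean ± SD of 3 and the dotted line marks equal levels. The share of *Prrx2* is lower after IL-1β in each genotype (14.8% against 26.8% in WT), and that of *Twist2* is highest in stimulated *Lkb1*-/- MEFs (36.8%).

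The start of *Twist2* lies within *Gm29100*, an antisense gene on the opposite strand, whose level was 3.68% to 12.8% of that of *Twist2*. With unstranded counting, where pairs that fall on both genes are left out, *Twist2* kept 0.292 of its count, against 0.991 to 1.01 for the other 7 genes. *Gm29100* was also higher in untreated *Lkb1*-/- MEFs (2.88 ± 0.269 against 1.81 ± 0.139 CPM, log2 fold change 0.67 ± 0.23, FDR 0.015) and lower in both clones (-1.75 ± 0.24, FDR 7.6e-06 in A1 and -0.90 ± 0.23, FDR 0.0040 in A2). The counts used here are of 1 strand, and the part of 1 gene's reads in the count of the other was not tested.

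The genes that act with these factors changed in both directions in untreated *Lkb1*-/- MEFs. Of all genes 55.9% were called, 30.1% higher and 25.8% lower, with a median of 0.04. Of 7 measured bHLH partners and inhibitors, 5 were higher and 1 lower (median log2 fold change 0.94). The inhibitors *Id2* (69.5 ± 11.1 against 11.4 ± 2.71 CPM in WT, 2.60 ± 0.27), *Id3* (100.4 ± 5.71 against 27.2 ± 4.02 CPM, 1.88 ± 0.12) and *Id1* (0.94 ± 0.18), whose products take E proteins away from factors such as TWIST, were higher, while the E protein gene *Tcf12* was lower (-0.42 ± 0.11) and *Tcf4*, with the highest mean CPM of the list over all 24 libraries, stood at 304 ± 19.0 against 261 ± 17.1 CPM and was not called. Against *Lkb1*-/- MEFs 3 of the 7 were higher and 1 lower in A1 (next to 18.9% and 16.4% of all genes), and 3 were higher in A2 (next to 17.1%); with 1 library left out 2 to 4 were called in A1 and 1 to 4 in A2 (next to 29.1% to 31.3% and 25.7% to 33.8% of all genes), the lowest without A1 control replicate 3 or *Lkb1*-/- control replicate 1 or 2 for A1 and *Lkb1*-/- control replicate 3 for A2. In A1 *Id1* was lower (-0.52 ± 0.18, FDR 0.029) and *Tcf12* (0.37 ± 0.11, FDR 0.0090) and *Tcf4* (0.51 ± 0.14, FDR 0.0061) higher, and in A2 *Id3* was higher (0.32 ± 0.12, FDR 0.046).

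Of 12 corepressors and chromatin partners of SNAI and ZEB factors, 4 were higher and 6 lower (next to 30.1% and 25.8% of all genes), and their median was -0.25. *Ctbp2*, which encodes a corepressor bound by ZEB1, was at 64.7 ± 1.43 against 114.9 ± 2.27 CPM in WT (-0.83 ± 0.06, FDR 3.7e-10). The related *Ctbp1* stood the other way, at 311 ± 12.7 against 215 ± 4.81 CPM in WT. Genes of LIM proteins that bind SNAI factors were lower, *Ajuba* by -0.89 ± 0.11 (log2) and *Wtip* by -1.11 ± 0.07. *Ezh2*, which encodes the methyltransferase of Polycomb complex PRC2, was higher (0.68 ± 0.06, FDR 7.5e-09), and *Suz12*, which encodes another PRC2 subunit and had the highest mean CPM of the list over all 24 libraries, was lower (-0.36 ± 0.09, FDR 0.0012). In the clones 4 of the 12 were higher and 2 lower in A1 (6 called, next to 35.3% of all genes), and 1 higher and 2 lower in A2 (3 called, next to 32.3%). The A1 count was 10 without the replicate 1 libraries, next to 40.2% of all genes. The A2 count was 1 without *Lkb1*-/- control replicate 2 (next to 25.7%), 5 with upper quartile scaling (34.2%) and 6 without the replicate 1 libraries (39.2%).

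Of 14 measured genes for enzymes that control the stability of these proteins, 3 were higher and 7 lower in *Lkb1*-/- MEFs (next to 30.1% and 25.8% of all genes). Their median was -0.15. *Lats2*, a Hippo pathway kinase, was at 25.9 ± 1.84 against 57.62 ± 1.504 CPM (-1.15 ± 0.08, FDR 1.4e-10), *Prkd1*, protein kinase D1, at 13.0 ± 1.25 against 23.5 ± 1.59 CPM (-0.85 ± 0.14), and the deubiquitinase gene *Usp27x* (-0.52 ± 0.10) and the kinase gene *Pak1* (-0.46 ± 0.10) were also lower. *Csnk1a1*, with the highest mean CPM of the list over all 24 libraries, stood at 527 ± 25.1 against 537 ± 23.6 CPM and was not called. In A1 3 of the 14 were higher and 5 lower (next to 18.9% and 16.4% of all genes), and *Prkd1* was above *Lkb1*-/- MEFs at 29.7 CPM (1.19 ± 0.14, FDR 1.6e-06); in A2 3 were lower (next to 15.1%). The A1 count of 8 was 5 without A1 control replicate 2 or with no filter (next to 29.1% and 16.4% of all genes), and the A2 count was 5 with upper quartile scaling (34.2%) and 8 without the replicate 1 libraries (39.2%).

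Of 13 other transcription factors linked to the transition that were measured, 8 were higher and 3 lower (next to 30.1% and 25.8% of all genes). Their median was 0.86. The forkhead genes *Foxq1* (49.2 ± 5.05 against 3.31 ± 0.129 CPM, 3.89 ± 0.15) and *Foxf1* (9.31 ± 1.32 against 0.354 ± 0.123 CPM, 4.73 ± 0.29), the Krüppel-like factor gene *Klf8* (22.3 ± 0.583 against 1.93 ± 0.609 CPM, 3.54 ± 0.18) and *Sox4* (590 ± 59.5 against 158 ± 16.2 CPM, 1.90 ± 0.18) were higher. Against *Lkb1*-/- MEFs 3 of the 13 were higher and 4 lower in A1 (next to 18.9% and 16.4% of all genes), and 3 higher and 3 lower in A2 (next to 17.1% and 15.1%). *Foxq1* was lower in A1 (-0.39 ± 0.13, FDR 0.021) and higher in A2 (139 CPM; 1.503 ± 0.128, FDR 2.5e-08), and *Foxf1* was lower in A2 (-2.08 ± 0.23, FDR 6.7e-07).

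Mesenchymal effector genes did not move as 1 group: of 16 measured, 6 were higher and 8 lower in *Lkb1*-/- MEFs (next to 30.1% and 25.8% of all genes). Their median was -0.20. *Fn1*, which encodes fibronectin, was at 2014 ± 206 against 640 ± 65.5 CPM (1.65 ± 0.13, FDR 4.4e-10), and *Mmp2*, a gelatinase gene, at 469 ± 98.6 CPM against 0.0957 ± 0.0473, near its detection limit in WT. The smooth muscle actin gene *Acta2* was at 15.8 ± 4.14 against 546 ± 158 CPM (-5.11 ± 0.32, FDR 1.2e-11) and *Tagln* at 2.20 ± 0.982 against 9.63 ± 3.14 CPM (-2.13 ± 0.40). Against *Lkb1*-/- MEFs 8 were higher and 2 lower in A1 (next to 18.9% and 16.4% of all genes), and 1 was higher and 8 lower in A2 (next to 17.1% and 15.1%), where *Acta2* (-3.00 ± 0.34, FDR 1.0e-06) and *Tagln* (-2.88 ± 0.51, FDR 1.9e-04) were lower still. *Mmp2* was lower in both (-1.54 ± 0.28 and -1.49 ± 0.28).

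Markers of other cell types stayed low but were not even. In untreated libraries the 5 endothelial markers summed to 0.424 to 0.678 CPM in WT and 2.45 to 2.85 CPM in *Lkb1*-/- MEFs, with *Kdr* at 2.60 ± 0.190 CPM and *Cdh5* at 0 in both, and the 5 immune cell markers to 0.0261 to 0.0893 and 1.26 to 2.24 CPM, with *Csf1r* at 1.68 ± 0.506 CPM and *Adgre1* and *Cd3e* at 0. The 5 skeletal muscle markers summed to 0.0522 to 0.115 and 0.249 to 0.405 CPM, led by *Des*. The 19 epithelial markers summed to 4.40 to 6.08 and 3.35 to 3.90 CPM, so that their sum was lower in *Lkb1*-/- MEFs. Of the 7 that passed the filter, 4 were higher and 2 lower, next to 30.1% and 25.8% of all genes. *Ocln* stood at 2.20 ± 0.325 and 0.401 ± 0.0592 CPM, and *Krt19* at 2.31 ± 0.267 and 0.613 ± 0.292. Means were higher in *Lkb1*-/- MEFs for *Esrp2* (0.0149 ± 0.0258 and 0.991 ± 0.127 CPM), *Dsp* (0.0310 ± 0.0338 and 0.860 ± 0.0985) and *Grhl2* (0.00869 ± 0.0151 and 0.271 ± 0.0618). The fibroblast markers themselves shifted, *Pdgfra* from 4.58 ± 0.997 to 342 ± 63.7 CPM, *Dcn* from 0.411 ± 0.0653 to 218 ± 12.1 CPM and *Col1a2* from 780 ± 165 to 63.0 ± 15.7 CPM. The part of these shifts in the levels of the 8 genes was not tested. Of the 6 genes of the miR-200 family and miR-205, whose microRNAs target ZEB mRNAs, 5 had no count in any library and *Mir200c* at most 3.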

How the data were processed

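Total RNA of 24 MEF libraries was sequenced. Per the study's methods and the labels, the authors trimmed reads with Trim Galore 0.6.0, aligned them with STAR 2.7.8a to mm10 and deposited raw read counts per gene with no normalization. The methods and the labels name different library kits. Of the deposited count columns, the second-strand one was used, because it held 95.5% to 96.0% of the strand-assigned counts. The lines that name no gene held 26.7% to 34.4% of each library's counts and were left out. Gene symbols and exon lengths came from GENCODE M21, which gave symbols for 55230 of 55471 identifiers.

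Genes were filtered with filterByExpr (at least 10 counts, total at least 15) and fitted with edgeR 4.0.16 in R 4.3.3: 1 quasi-likelihood fit, a mean per group, all 24 libraries, TMM scaling, common biological coefficient of variation 0.129. p-values were adjusted by Benjamini-Hochberg over all genes tested. The script was tested on simulated data. Alternatives were DESeq2 1.42.0, other scalings, no filter, the newer quasi-likelihood method, unstranded counts, a replicate block, only the groups compared, and each library left out. The 8 genes and the gene lists were chosen with earlier results of these data known. Named list genes were up to 4 called genes with the largest change and the one with the highest mean CPM over all libraries. Defining markers at or near 0, *Ctbp1*, and the epithelial markers *Krt19*, *Esrp2*, *Dsp* and *Grhl2* were added after their values were seen. A gene that this rule also names is not reported here. All replicate pairs differed beyond sampling noise, pairs with replicate 1 most, and a fit without the 8 replicate 1 libraries was added after seeing the data.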

Additional observations from a re-analysis of the deposited data

How the results depend on the processing

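Of the values of the 8 genes that are printed or were called, recomputed with another method, 726 kept their direction and side of the threshold, 55 gained a call, 10 lost one and 1 reversed, and with 1 library left out the numbers were 577, 10, 34 and 3. *Snai2* in untreated A2 against *Lkb1*-/- MEFs reversed to 0.012 with unstranded counts and to 0.16 without the replicate 1 libraries, and ran from -0.11 to 0.20 with 1 library left out, and *Prrx1* in untreated A1 from -0.0049 to 0.19. The number of the 8 genes called changed by over 1.5 times as follows, with the share of all genes called in brackets. Untreated A1 against *Lkb1*-/- MEFs had 5 called (43.0%) when only the compared groups were fitted and 3 (35.3%) with all libraries, and stimulated A1 had 2 to 4 (29.9% to 32.9%) with 1 library left out. For IL-1β in WT (1 called, 2.26%) there were 5 with a replicate block (9.30%), 2 with only the groups compared (2.52%) or without the replicate 1 libraries (5.28%) and 0 to 1 with 1 library left out (1.13% to 2.30%). For IL-1β in A1 (1 called, 1.99%) there were 0 with unstranded counts (288 genes), 3 with upper quartile scaling (2.85%) or no filter (2.47%), 4 with a replicate block (9.61%), 2 by DESeq2 (3.66%) or without the replicate 1 libraries (5.15%) and 0 to 2 with 1 library left out (1.10% to 1.30%). For IL-1β in A2 (3 called, 5.68%) a replicate block gave 5 (17.9%). The response of *Lkb1*-/- minus WT (0 called, 0.245%) gave 1 with DESeq2's size factors (0.285%), upper quartile scaling (0.434%), DESeq2 (0.696%) or only the groups compared (0.421%), 2 with no filter (0.943%), 3 with a replicate block (1.77%) and 0 to 1 with 1 library left out (0.128% to 0.318%). The cause was not tested.

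Over all genes, IL-1β called 396, 831, 348 and 995 genes in WT, *Lkb1*-/-, A1 and A2, and with no filter 954, 1428, 908 and 1643. DESeq2 called 619 in WT and 563 in A1, and only the groups compared gave 246 in A2. The response differences of *Lkb1*-/- minus WT, A1 minus *Lkb1*-/- and A2 minus *Lkb1*-/- had 43, 5 and 0 genes, with no filter 347, 141 and 68, by DESeq2 112, 11 and 10, and with upper quartile scaling 76, 3 and 1. Unstranded counts gave 3 for A1 and only the groups compared 70 for *Lkb1*-/- minus WT. Of the counts per gene list, 257 stayed within 1.5 times with another method and 7 did not, and 192 and 6 with 1 library left out, where bHLH partners ran from 2 to 4 in A1 and 1 to 4 in A2. Without the replicate 1 libraries, 82 of these values stayed on their side of the threshold, 14 gained and 2 lost a call, and 1 reversed; IL-1β then called 921, 1534, 899 and 2556 genes in WT, *Lkb1*-/-, A1 and A2.

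The labels give replicate numbers but not what they share. Correlations between same-numbered libraries of different groups, as deviations from group means, ran from 0.0355 to 0.589 over 84 pairs (median 0.222, 69 over 0.1), and 23 of 24 libraries correlated best with their own number. This is a hint from the data and not from the design. With a replicate block IL-1β called 1629, 2601, 1684 and 3133 genes in WT, *Lkb1*-/-, A1 and A2, and the response differences 311, 36 and 18. Among the results given here the block added calls for *Prrx2* in untreated *Lkb1*-/- MEFs (-0.27) and both stimulated clones (-0.39 and -0.32), *Snai2* in stimulated A1 (-0.30), *Twist1* in untreated A1 (0.23), *Zeb1* and *Prrx2* in untreated A1 against WT (0.22 and -0.35), *Twist1* in stimulated A1 against WT (0.25), *Zeb2* in stimulated A2 (0.25), *Zeb2* after IL-1β in WT, A1 and A2 (0.25, 0.28 and 0.29), *Prrx1* after IL-1β in WT and A1 (0.27 and 0.38), *Snai1* and *Twist2* after IL-1β in WT (0.22 in each), and *Twist2*, *Prrx1* and *Prrx2* in the response of *Lkb1*-/- minus WT (0.50, 0.51 and 0.79). With the block the corepressors had 10 calls in A1 and 6 in A2, and the stability regulators 6 in A2, next to 8424 (48.1%) of all genes in A1 and 8042 (45.9%) in A2.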

Other observations

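The genes whose levels followed each of the 8 most closely were taken as those with the highest Pearson correlation of log2 CPM over the 24 libraries of 8 groups, among 11355 genes. The libraries of a group share their cells and treatment, so these values are descriptions. *Snai1* was followed by *Pde4b*, which encodes a cAMP phosphodiesterase (r = 0.989), *Tubb2b* (0.988) and *Hs3st1* (0.987), and *Snai2* by *Rab3b* (0.991), *Map1a* (0.990) and *Igsf10* (0.990). The values of *Twist2* were lower, with *Cnot7* (0.955), *Fgfr1*, which encodes an FGF receptor (0.952), and *Nab1* (0.948), and those of *Twist1* lower again, with *Anxa2* (0.915), *Wac* (0.911) and *Gdap2* (0.911).

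*Zeb1* was followed by *Tmod3* (0.956), *Fbxo38* (0.956) and *Rab10* (0.955). *Zeb2* was followed by *Lhfpl2* (0.945), *Tnfrsf1b*, which encodes a TNF receptor (0.944), and *Trib1* (0.937). *Prrx1* was followed by *Zfp827* (0.979), *Nampt*, which encodes an enzyme of NAD synthesis (0.969), and *Dock5* (0.961), and *Prrx2* by *Pias3* (0.893), *AI464131* (0.850) and *Papss1* (0.830). No member of the 8 was among the 3 closest genes of another.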
